A study of Mus musculus with 14 samples.

Results

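The regions described here lie at 40 genes of glycolysis and of the mTORC1 pathway, 20 for each. Of the 67254 regions of open chromatin counted in splenic Tregs, 57 had their midpoint within 1000 bp of a transcription start of a member gene (promoter regions), and 163 had a member's start as their nearest protein-coding start. Together these are 167 regions, since 53 met both rules. Every member except Pfkl, a phosphofructokinase gene, had at least 1 region, and 39 of the 40 had a promoter region. A few promoter regions lay closer to a neighbouring gene's start than to the member's, namely those that Pfkm shares with Senp1, Rps6kb1 with Tubd1, Nprl2 with Cyb561d2 and, for the second of its regions, Lamtor2 with Ubqln4, and accessibility there cannot be assigned to either gene.

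ATAC-seq counts how often a transposase cuts into chromatin, so that a higher count means a more accessible region. Control cells were Foxp3Cre Atg14 +/fl and Atg14-deficient cells Foxp3Cre Atg14 fl/fl, so that the Cre recombinase, driven from the Treg gene Foxp3, was in both and the controls kept an intact allele. Marrow of either genotype (CD45.2+) had been mixed with an equal part of CD45.1+ wild-type marrow and given to irradiated Rag1-/- mice, which lack mature T and B cells of their own. CD45.2+ cells were then sorted from the spleen as CD4+Foxp3-YFP+ cells, either CD44-CD62L+ cTregs (resting, central Tregs) or CD44+CD62L- eTregs (activated, effector Tregs). There were 3 control and 4 Atg14-deficient libraries of cTregs, and as many of each genotype of eTregs. The methods give a general age range for the mutant mice and tie no age to these chimeras. The libraries came from 3 control and 4 Atg14-deficient chimeras. The main fit treats the 14 libraries as independent, so its p-values measure the spread between libraries of a group. They do not pair the cTregs and eTregs of a chimera.

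Glycolysis turns glucose into pyruvate through a fixed chain of enzymes, starting with hexokinase, and lactate dehydrogenase and the monocarboxylate transporters turn pyruvate into lactate and carry it out of the cell. mTORC1 is a kinase complex on the lysosome that senses amino acids through the Rag GTPases and growth factor signals through TSC and Rheb. It drives protein synthesis and glycolysis and restrains autophagy, the process that Atg14 helps to start. In T cells both pathways rise with activation.

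Total counts were between 2242983 and 5548189 per library. The 163 member regions took from 0.287 to 0.326% of a library's counts. At the markers of the sort, the promoter region of Ccr7, a homing receptor of resting cells, fell from 30.2 ± 7.49 CPM (SD, n = 3; counts scaled to a library total of 1e6, CPM) in control cTregs to 11.1 ± 2.43 CPM (n = 3) in control eTregs and passed the test in both genotypes, as did that of Tcf7. None of the 5 eTreg markers with a promoter region (Cd44, Icos, Klrg1, Prdm1, Tigit) was higher in eTregs by the test. At Icos, a costimulatory receptor, the summed level went the other way, from 45.5 ± 7.64 to 26.2 ± 3.72 CPM in Atg14-deficient cells (n = 4 each), where the larger of its 2 regions passed the test, and from 38.9 ± 7.64 to 22.9 ± 1.26 CPM in controls (n = 3 each), where it did not. Foxp3 and Cd4 had no region within 1000 bp of their starts. Of the 12 markers of B cells, CD8 T cells, myeloid cells, NK cells and erythroid cells, 9 had no promoter region, and the summed level of the other 3 was 21.4 to 24.9 CPM in control cTregs, 24.4 to 30.0 in Atg14-deficient cTregs, 12.8 to 15.7 in control eTregs and 15.7 to 20.1 CPM in Atg14-deficient eTregs. Among them, that of Cd8b1 fell with the state in both genotypes, from 16.1 ± 0.71 to 4.35 ± 2.20 CPM in controls (n = 3 each). The part of such other cells in the results below was not tested. At Atg14 itself, 5 regions were counted, with the one at its start at 24.2 ± 6.12 CPM in control (n = 3) and 24.8 ± 3.91 CPM in Atg14-deficient eTregs (n = 4). Which exon the deletion removes is not given in the sources used here, so this checks no label.

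The sequences below are of regions whose accessibility differed between the Treg states. The first 3 are promoter windows of 300 bases from RefSeq (GRCm38.p6), from 250 bases before to 50 after a start, written along the gene. They belong to Hk2 (minus strand, chr6:82774405-82774704) and Aldoa (minus strand, chr7:126799205-126799504), in which capitals mark ACGTG, and to Eno1 (plus strand, chr4:150236947-150237246), in which capitals mark GCGTG. Both are forms of the core bound by the hypoxia factor HIF-1, read on either strand.
Hk2: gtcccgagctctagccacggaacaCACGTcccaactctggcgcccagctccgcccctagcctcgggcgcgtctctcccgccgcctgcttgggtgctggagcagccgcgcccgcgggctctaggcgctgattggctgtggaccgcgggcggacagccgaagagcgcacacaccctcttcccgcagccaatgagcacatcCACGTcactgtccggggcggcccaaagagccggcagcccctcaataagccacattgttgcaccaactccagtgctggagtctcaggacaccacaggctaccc
Aldoa: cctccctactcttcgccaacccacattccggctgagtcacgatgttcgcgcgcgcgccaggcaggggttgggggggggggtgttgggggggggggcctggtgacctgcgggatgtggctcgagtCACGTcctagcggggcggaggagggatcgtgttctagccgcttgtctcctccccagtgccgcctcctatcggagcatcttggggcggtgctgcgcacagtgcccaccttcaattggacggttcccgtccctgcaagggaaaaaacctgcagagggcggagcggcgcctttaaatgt
Eno1: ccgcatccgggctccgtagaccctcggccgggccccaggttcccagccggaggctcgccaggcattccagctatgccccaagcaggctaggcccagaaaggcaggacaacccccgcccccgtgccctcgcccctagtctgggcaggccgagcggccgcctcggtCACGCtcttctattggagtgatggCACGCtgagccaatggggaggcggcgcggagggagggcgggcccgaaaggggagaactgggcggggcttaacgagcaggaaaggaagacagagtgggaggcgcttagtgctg

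The other 4 are the central 300 bases (plus strand, GRCm38) of regions away from promoters. That 68596 bp downstream of the nearest Pfkfb3 start (chr2:11429655-11429954) and that 22335 bp upstream of Slc16a1 (chr3:104616180-104616479) carry TGAGTCA or its reverse complement TGACTCA in capitals, the letters bound by AP-1 factors of activated T cells. Those 9952 bp upstream of Ldha (chr7:46832173-46832472) and 7507 bp upstream of Slc16a1 (chr3:104631008-104631307, 4 bases longer than the region) hold none of the motifs searched.
Pfkfb3: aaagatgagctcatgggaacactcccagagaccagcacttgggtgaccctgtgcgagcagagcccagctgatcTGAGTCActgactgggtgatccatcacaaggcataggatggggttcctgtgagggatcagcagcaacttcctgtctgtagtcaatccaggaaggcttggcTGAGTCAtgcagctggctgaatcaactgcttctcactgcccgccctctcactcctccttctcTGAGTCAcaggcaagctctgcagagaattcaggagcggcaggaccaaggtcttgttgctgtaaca
Slc16a1, 22335 bp: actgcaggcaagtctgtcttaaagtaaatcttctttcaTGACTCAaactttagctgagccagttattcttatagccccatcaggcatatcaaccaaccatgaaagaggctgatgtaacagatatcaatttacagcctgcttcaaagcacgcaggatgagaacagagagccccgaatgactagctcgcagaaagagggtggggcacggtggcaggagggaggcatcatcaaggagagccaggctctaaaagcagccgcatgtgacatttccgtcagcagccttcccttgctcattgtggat
Ldha: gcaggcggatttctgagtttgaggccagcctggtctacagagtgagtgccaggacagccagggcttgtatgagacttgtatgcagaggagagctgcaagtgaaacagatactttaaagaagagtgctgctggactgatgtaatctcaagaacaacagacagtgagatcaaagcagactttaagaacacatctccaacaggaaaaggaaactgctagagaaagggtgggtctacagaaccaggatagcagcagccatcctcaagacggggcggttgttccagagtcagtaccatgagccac
Slc16a1, 7507 bp: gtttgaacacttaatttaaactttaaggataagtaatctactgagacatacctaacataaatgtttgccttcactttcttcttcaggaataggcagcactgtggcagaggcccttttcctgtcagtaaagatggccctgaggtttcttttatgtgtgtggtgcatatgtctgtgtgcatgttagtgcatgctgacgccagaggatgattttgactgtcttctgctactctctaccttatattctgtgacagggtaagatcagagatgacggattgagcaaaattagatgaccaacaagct

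The motifs searched were CACGTG, the E-box of Myc, HIF-1 and TFEB, which contains the second, ACGTG, then GCGTG and TGAGTCA, each on both strands. Among the promoter windows, 37 of the 40 members were matched, with 50 windows, some of them overlapping windows of 1 gene. ACGTG was in 20 of these (40%) and in 19.6% of all 32851 promoter windows. GCGTG was in 29 (58.0%) against 32.4%, CACGTG in 7 (14%) against 7.2%, and TGAGTCA in 1 (2.0%) against 5.2%. The central 300 bases of the promoter regions held ACGTG in 31 of 57 (54.4%) against 25.6% of all promoter regions, and GCGTG in 28 (49.1%) against 51.2%. Away from promoters, TGAGTCA was in 25 of 110 member regions (22.7%) and in 13.5% of all such regions. A match describes the letters only.

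The promoter regions of the members spanned a wide range of accessibility. Compared per length, the median over the 56 tested member promoter regions was 47.0 CPM per kb, against 40.3 CPM per kb over all 14281 tested promoter regions. The 105 tested member regions elsewhere had a median of 17.6 CPM per kb, against 15.95 CPM per kb over all 47085 tested regions not at a promoter. Taking for each gene its promoter region with the highest mean count, Pgk1 (phosphoglycerate kinase, which makes ATP in lower glycolysis) was the most accessible at 282 CPM per kb over the 14 libraries, above 99% of all tested promoter regions. Mtor, which encodes the kinase itself, followed at 265 CPM per kb (98.6%), and Rragc, a Rag GTPase, at 153 CPM per kb (92.7%). Pfkp, Hk1, Gapdh, Gpi1, Rheb and Eno1 lay between 100.1 and 134 CPM per kb. At the low end were Nprl2 of the GATOR1 complex at 21.0 CPM per kb, Rragd at 24.2, and both TSC subunits, Tsc1 and Tsc2, at 27.5 CPM per kb.

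**Figure D1:**
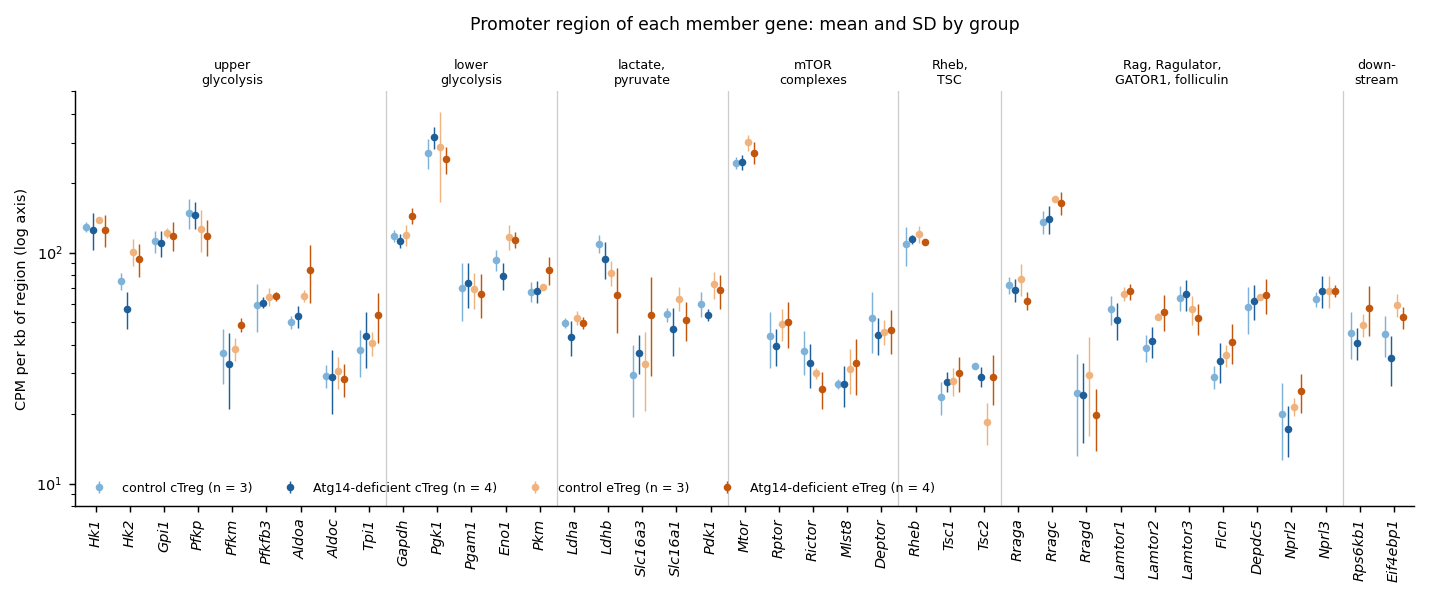
Accessibility of the promoter region of each of 39 member genes in CPM per kb of region (log axis), by role. Points are group means and bars the SD over 3 control or 4 Atg14-deficient libraries; Pgk1 and Mtor stand above the other members in all groups, and for most genes the 4 groups overlap.

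The first comparison asks how accessibility differed between eTregs and cTregs, in controls and in Atg14-deficient cells separately. A region was called where edgeR's quasi-likelihood test gave a Benjamini-Hochberg adjusted p below 0.05 over all 61366 tested regions and a log2 fold change beyond 0.5. In controls, 4 of the 157 tested member regions were called (2.55%), 1 higher and 3 lower in eTregs, against 5.3% of all regions (2.01% higher and 3.29% lower). None of the 56 promoter regions was called, where 2.74% of all promoter regions were, and 2 (3.57%) passed the looser, unadjusted threshold (an uncorrected p under 0.05 and the same fold change), against 10.1% of all promoter regions. DESeq2's Wald test also called 4 of the 157, against 6.82% of all regions. In such bulk samples fewer cells with an open region and less opening per cell cannot be told apart. In Atg14-deficient cells 8 of 157 were called (5.1%), 5 higher and 3 lower, against 9.81% of all regions (4.41% higher and 5.4% lower), and 4 of 56 promoter regions (7.14%), all higher in eTregs, against 7.7% of all promoter regions. DESeq2's Wald test called 14 of the 157 there (8.92%), against 11.7% of all regions.

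The shares of member regions called were thus below those of all regions in both genotypes and close to them at promoters of Atg14-deficient cells. The median change of the member promoter regions was 0.11 (log2) in controls and 0.17 in Atg14-deficient cells, beside 0.06 and 0.12 over all promoter regions. The difference of library medians between the states had an SD of 0.106 and 0.092, and the spread of the gaps themselves was not computed. The control median was 0.19 without control cTreg replicate 3 and 0.16 without control eTreg replicate 2. All promoter regions together took 53.2 to 58.5% of the counts in control cTregs, 54.8 to 57.8% in control eTregs, 51.9 to 55.7% in Atg14-deficient cTregs and 53.5 to 57.4% in Atg14-deficient eTregs, and the part of this share was not tested. Over the other 105 member regions the medians were 0.00 and -0.08. Same-numbered cTreg and eTreg libraries of Atg14-deficient cells deviated together (r from 0.119 to 0.243 across regions), and with the number as a replicate block within genotype 17 of 157 were called in those cells (10.8%), against 15.5% of all regions. Control pairs had r from 0.054 to 0.209, and with that block 5 of 157 were called in controls (3.18%), against 10.4% of all regions. The count of 8 was 4 without Atg14-deficient cTreg replicate 3, where the share of all regions also fell, to 4.62%, and 4 without Atg14-deficient eTreg replicate 4, where it was 5.79%. In controls the count of 4 was 2 without control eTreg replicate 1, with 2.12% of all regions called.

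**Figure D2:**
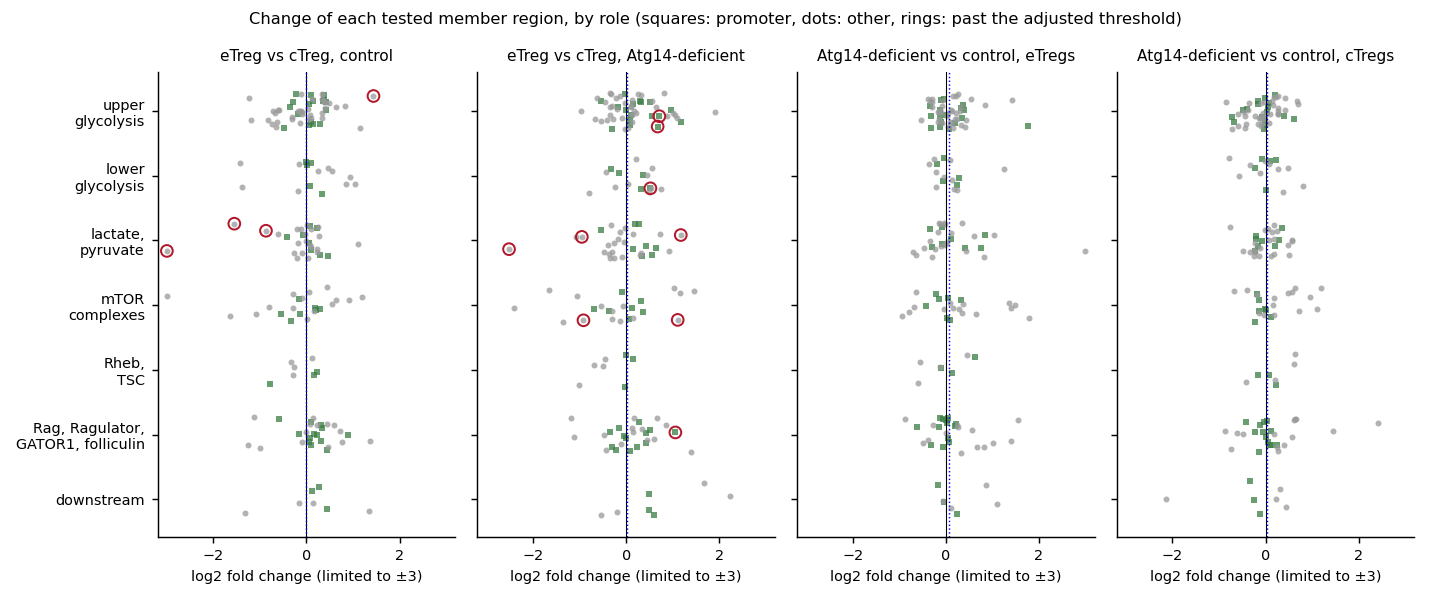
Log2 fold change of each of 161 tested member regions, one panel for each comparison, by role. Squares are promoter regions, dots other regions, rings the regions past the adjusted threshold and the dotted line the median of all tested regions; rings appear only in the 2 panels of eTregs against cTregs, and values beyond 3 on either side are drawn at 3.

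In upper glycolysis, the promoters of Hk2 and Aldoa were more accessible in Atg14-deficient eTregs than in cTregs. Hk2 encodes the inducible hexokinase of activated T cells, and its region (chr6:82774349-82774787, midpoint 114 bp upstream of the start) had 39.3, 41.0, 33.9 and 50.1 CPM in the 4 Atg14-deficient eTreg libraries and 21.8, 26.5, 21.0 and 30.8 CPM in the 4 cTreg libraries. All eTreg values lay above all cTreg values, and the log2 fold change was 0.71 ± 0.17 (SE; edgeR adjusted p = 0.00848), a call kept with each library left out. Control eTregs had 37.4, 46.7 and 48.5 CPM and control cTregs 32.8, 35.9 and 30.3 CPM, again without overlap, but the difference of 0.42 ± 0.19 missed the threshold (edgeR adjusted p = 0.205).

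Aldoa encodes the main aldolase of most tissues. Its region (chr7:126799051-126799781, 162 bp upstream of a start and within an intron of a longer transcript) had 55.7, 48.1, 54.8 and 86.8 CPM in Atg14-deficient eTregs and 40.3, 40.5, 32.6 and 41.4 CPM in the cTregs of that genotype, a log2 fold change of 0.68 ± 0.16 (edgeR adjusted p = 0.00744). The fourth eTreg library was far above the other 3, and without it the change was 0.46 and no longer called. Controls had 46.2, 50.6 and 45.6 CPM in eTregs and 34.2, 36.6 and 38.8 CPM in cTregs, a change of 0.38 ± 0.18 that did not pass (edgeR adjusted p = 0.243).

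Pfkfb3 encodes the enzyme that makes fructose 2,6-bisphosphate, the activator of phosphofructokinase, and it had the most regions of any member (17). The intergenic region 68596 bp downstream of its nearest start (chr2:11429599-11430010), whose 3 TGAGTCA matches are shown above, had 27.3, 24.1 and 22.7 CPM in control eTregs and 10.3, 10.1 and 6.24 CPM in control cTregs. This was the 1 member region called higher in control eTregs (log2 fold change 1.44 ± 0.34, edgeR adjusted p = 0.012), and the call was lost without control cTreg replicate 3 (1.28) or control eTreg replicate 1 (1.37). In Atg14-deficient cells the change was 0.87 ± 0.30 (edgeR adjusted p = 0.0604). It passed there with DESeq2's Wald test and with the replicate number as a block, over all libraries or within genotype. It also passed with at least 10 counts in every library and without Atg14-deficient cTreg replicate 1. At 68596 bp, 1 cTreg library of these cells, at 21.0 CPM, reached the level of the eTregs, which were between 15.9 and 24.3 CPM. The Pfkfb3 regions 56359 bp downstream and 1140 bp upstream of a start passed with DESeq2's Wald test and the block within genotype. The former also passed with only the groups compared and without control cTreg replicate 3 or Atg14-deficient cTreg replicate 4. In controls the latter passed with that block and without control eTreg replicate 3. The block within genotype, or leaving out 1 Atg14-deficient cTreg library, added those 18258 bp downstream and 3707 bp upstream of Pfkp. The main edgeR fit called nowhere the main promoter regions of Hk1, Gpi1, Pfkp, Pfkm, Pfkfb3, Aldoc and Tpi1, with changes from -0.32 (Pfkp) to 0.55 (Pfkm) in Atg14-deficient cells. A second Tpi1 promoter region, 520 bp downstream of the start, was at 11.9 ± 2.82 CPM in Atg14-deficient eTregs and 6.17 ± 2.96 CPM in cTregs (n = 4 each), with overlap (0.96 ± 0.33, edgeR adjusted p = 0.0586). It passed with the block within genotype, with DESeq2's Wald test, with at least 10 counts in every library and without Atg14-deficient cTreg replicate 1.

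In lower glycolysis, the promoter region of the enolase gene Eno1 was called in Atg14-deficient cells. This region (chr4:150236792-150237350, 126 bp upstream of a start) had 65.3, 56.1, 64.6 and 68.1 CPM in Atg14-deficient eTregs and 43.7, 47.5, 36.5 and 50.1 CPM in cTregs, without overlap (log2 fold change 0.52 ± 0.14, edgeR adjusted p = 0.0138). The change is close to the fold threshold and the call was lost under TMM scaling (0.49) and without Atg14-deficient cTreg replicate 3 (0.43) or eTreg replicate 4 (0.49). Control eTregs, at 73.5, 57.7 and 65.1 CPM, also lay above control cTregs, at 57.2, 46.4 and 51.7 CPM, by 0.34 ± 0.15 (edgeR adjusted p = 0.21). The promoters of Gapdh, Pgk1, Pgam1 and Pkm were not called, with changes from -0.32 (Pgk1) to 0.36 (Gapdh) in Atg14-deficient cells and from 0.00 (Pgam1) to 0.10 (Pgk1) in controls. A region 15727 bp upstream of Pgk1 was at 6.51 ± 3.07 CPM in Atg14-deficient eTregs and 11.3 ± 4.43 CPM in cTregs (n = 4 each), with overlap (-0.80 ± 0.35, edgeR adjusted p = 0.136), and passed only with the replicate block within genotype among the settings run.

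Among the 30 tested regions of genes of lactate and pyruvate handling, 3 were called in controls, all lower in eTregs, and 3 in Atg14-deficient cells, 1 higher and 2 lower. That is 10% in each, against 5.3% and 9.81% of all regions. They were 4 different regions, none at a promoter, and 3 of the 4 belong to Slc16a1. Slc16a1 encodes a monocarboxylate transporter that carries lactate, and 3 of its 9 regions were called. The region 22335 bp upstream (chr3:104616075-104616584) had 15.6, 16.3 and 18.6 CPM in control eTregs and 36.2, 29.0 and 27.2 CPM in control cTregs (log2 fold change -0.87 ± 0.24, edgeR adjusted p = 0.0294). In Atg14-deficient cells it had 17.98, 25.1, 19.6 and 11.3 CPM in eTregs and 31.9, 40.5, 38.9 and 29.9 CPM in cTregs (-0.95 ± 0.21, edgeR adjusted p = 0.0045). It thus fell in both genotypes with no overlap, though the call in controls was lost without control cTreg replicate 1 or any 1 of the 3 control eTreg libraries, with changes between -0.95 and -0.73 over all single omissions.

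The region 7507 bp upstream of Slc16a1 (chr3:104631010-104631305) was weak but ordered by state. It had 0 counts in each of the 3 control eTreg libraries and 32 counts in the 3 control cTreg libraries together, or 3.42, 2.87 and 2.67 CPM. Most counts in these libraries are even, and a count can include both ends of a fragment, so the floor was set at 3 fragments of 2 counts each over the group (0.483 CPM), and the region was at least 6.3-fold lower in control eTregs (edgeR adjusted p = 0.00444). The bound covers counting error only. The region passed the filter on low counts only through its cTreg libraries, where it was higher, and drops out with at least 10 counts in every library. The fold and p-value thus describe the region and are no independent evidence of a state difference. In Atg14-deficient cells it fell from 54 to 10 counts, with 1.20, 0.837, 0 and 1.03 CPM in eTregs and between 2.52 and 6.23 CPM in cTregs (log2 fold change -2.52 ± 0.72, edgeR adjusted p = 0.0251). The latter call was lost without Atg14-deficient cTreg replicate 2 or 3 or eTreg replicate 3, with changes between -2.82 and -2.08 over all single omissions. Downstream of the gene by contrast, the region at 36888 bp from the start (chr3:104675276-104675828) was higher in Atg14-deficient eTregs (13.5, 12.6, 8.47 and 13.9 CPM) than in cTregs (3.36, 4.67, 4.995 and 8.03 CPM), by 1.17 ± 0.32 (edgeR adjusted p = 0.0189). That call was lost without replicate 1 or 3 of the cTregs or replicate 1 or 4 of the eTregs, with changes between 1.03 and 1.45 over all single omissions. In controls it differed by 0.07 ± 0.35. The Slc16a1 promoter itself differed by 0.23 in controls and 0.14 in Atg14-deficient cells and was not called.

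**Figure D3:**
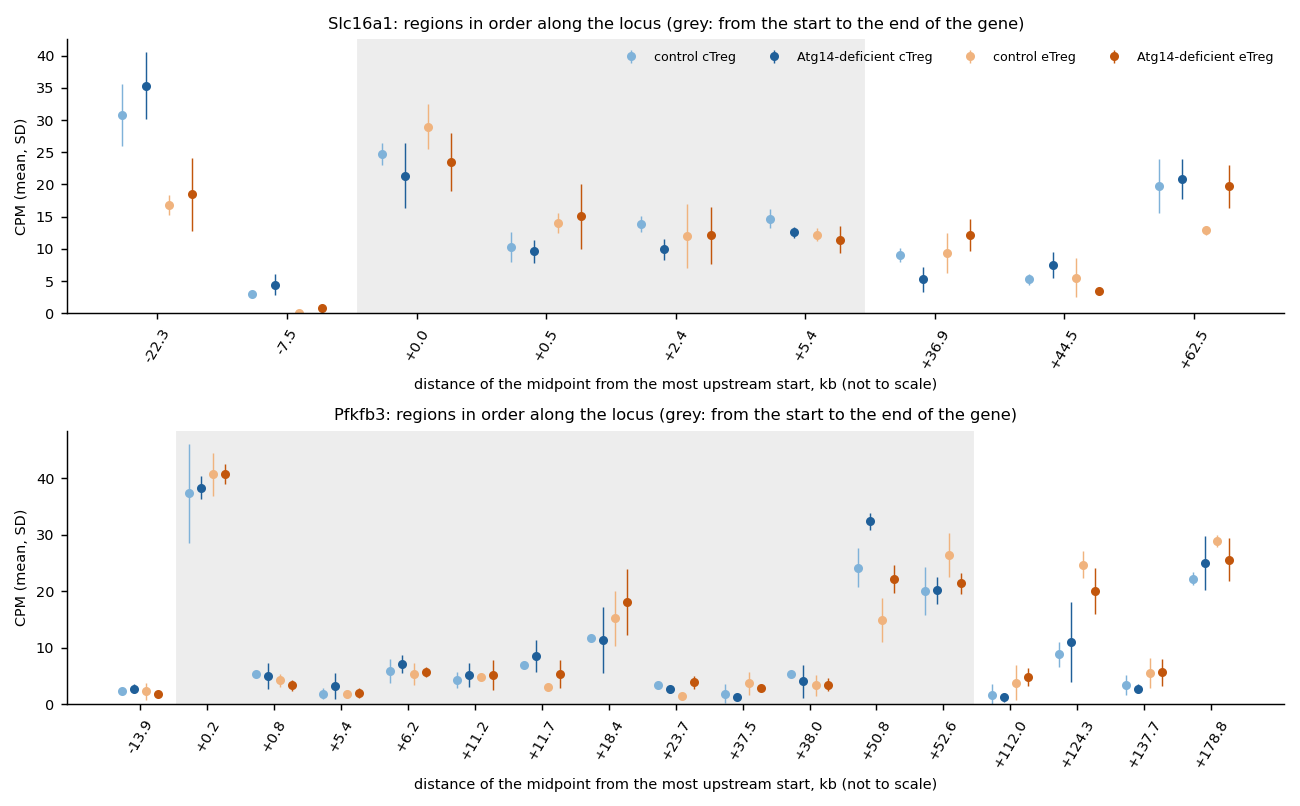
CPM of every region assigned to Slc16a1 and Pfkfb3, in order along each locus, with the distance of its midpoint from the most upstream start in kb on the x axis (not to scale). Points are group means and bars the SD (n = 3 control, n = 4 Atg14-deficient); the 2 regions upstream of Slc16a1 are lower in both eTreg groups, and the Pfkfb3 region at 124.3 kb is higher in control eTregs than in control cTregs.

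Ldha encodes the lactate dehydrogenase subunit that favours lactate production. The region 9952 bp upstream (chr7:46832173-46832472) fell from 13.7, 14.8 and 15.2 CPM in control cTregs to 4.55, 6.82 and 3.60 CPM in control eTregs (log2 fold change -1.55 ± 0.34, edgeR adjusted p = 0.00618), and no single library ended this call. In Atg14-deficient cells the 4 eTreg libraries had 9.59, 11.7, 9 and 10.3 CPM and the cTregs between 7.01 and 14.8 CPM, with overlap and a change of -0.31 ± 0.28 (edgeR adjusted p = 0.522). The Ldha promoter differed by 0.08 and 0.20 in the 2 genotypes. The promoter of Ldhb, the other subunit, was lower in eTregs of both, by -0.41 ± 0.20 in controls (edgeR adjusted p = 0.25) and by -0.53 ± 0.18 in Atg14-deficient cells (edgeR adjusted p = 0.0566), which did not pass in this fit. It passed with either replicate block, with loess offsets, with at least 10 counts in every library, and without Atg14-deficient cTreg replicate 4 or eTreg replicate 2 or 3. Slc16a3, the lactate exporter of glycolytic cells, and Pdk1, which restrains pyruvate oxidation, were not called at their promoters.

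Of the mTOR complex subunits, 2 intronic regions were called, both in Atg14-deficient cells. Rictor belongs to mTORC2 rather than mTORC1, and a region in its intron 18267 bp from the nearest start (chr15:6726421-6726875) had 16.8, 11.7, 7.94 and 12.8 CPM in Atg14-deficient eTregs, below 21.8, 21.8, 26.3 and 22.8 CPM in the cTregs (log2 fold change -0.92 ± 0.23, edgeR adjusted p = 0.0108), a call kept with each library left out. In controls it was at 19.2 ± 1.09 CPM in eTregs and 20.3 ± 3.75 CPM in cTregs (n = 3 each) and differed by -0.09 ± 0.25. Rptor encodes raptor, the subunit that defines mTORC1, and a region in its intron at 21209 bp (chr11:119676846-119677471) was higher in Atg14-deficient eTregs, at 24.0, 9.20, 12.7 and 15.2 CPM against 8.40, 3.89, 5.26 and 10.9 CPM (1.11 ± 0.34, edgeR adjusted p = 0.0351). The 2 groups overlapped, and the call was lost without replicate 1, 2 or 3 of the cTregs or replicate 1 or 4 of the eTregs (0.81 to 1.41 over all single omissions). No promoter of Mtor, Rptor, Rictor, Mlst8 or Deptor was called.

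Among the upstream regulators, 1 promoter region near Lamtor2, a subunit of the Ragulator scaffold, was called. It lies 691 bp from the Lamtor2 start and 35 bp from that of Ubqln4 (chr3:88553458-88553827) and had 8.99, 13.4, 18.5 and 12.8 CPM in Atg14-deficient eTregs against 5.04, 3.89, 6.84 and 9.64 CPM in cTregs (log2 fold change 1.06 ± 0.31, edgeR adjusted p = 0.0255), with overlap. The call was lost without replicate 1, 2 or 3 of the cTregs or replicate 3 of the eTregs (0.86 to 1.32 over all single omissions). Control eTregs, at 14.6, 12.6 and 11.9 CPM, were above control cTregs, at 7.33, 5.74 and 8.03 CPM, but the change of 0.90 ± 0.34 did not pass (edgeR adjusted p = 0.128). The region over the Lamtor2 start changed by 0.44 and 0.43 in the 2 genotypes and was not called. None of the 7 tested regions of Rheb, Tsc1 and Tsc2 was called, nor any of the 25 regions nearest to genes of Rag, Ragulator, GATOR1 and folliculin.

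Downstream, the promoter of Eif4ebp1, whose product is the translation repressor that mTORC1 phosphorylates, had 26.4, 25.9, 32.8 and 28.3 CPM in Atg14-deficient eTregs and 18.9, 24.9, 13.7 and 17.99 CPM in cTregs, a change of 0.60 ± 0.20 short of the threshold (edgeR adjusted p = 0.0526) that passed with the replicate block within genotype, with DESeq2's Wald test, with at least 10 counts in every library, and without control cTreg replicate 2 or 3 or Atg14-deficient cTreg replicate 2. The promoter that Rps6kb1, the S6 kinase gene, shares with Tubd1 changed by 0.50 in those cells and by 0.13 in controls, without a call.

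**Figure D4:**
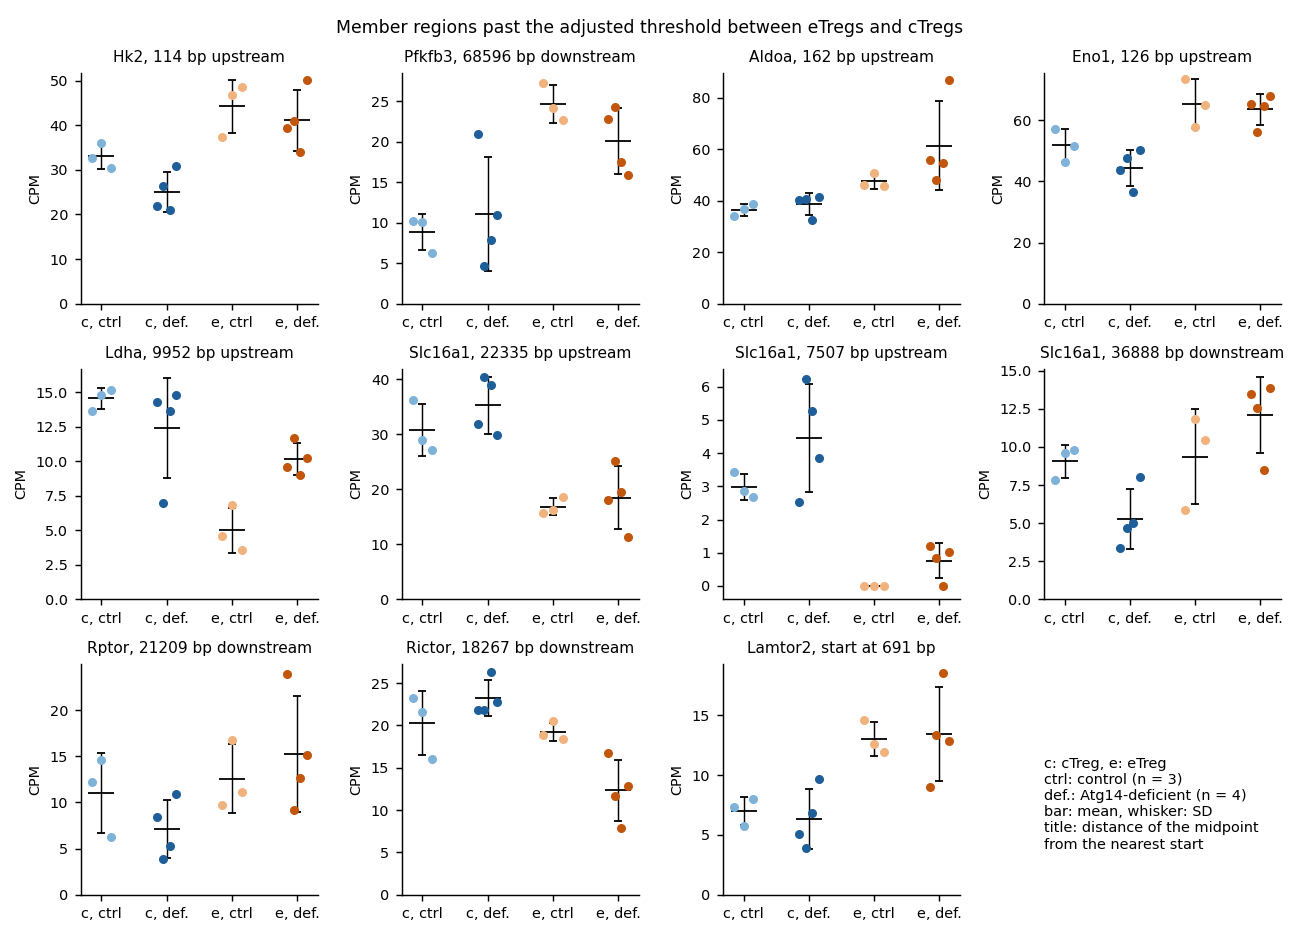
CPM in every library for the 11 member regions past the adjusted threshold between eTregs and cTregs in either genotype. Points are libraries, bars means and whiskers the SD (n = 3 control, n = 4 Atg14-deficient); at Hk2, Aldoa and Eno1 the eTreg values lie above the cTreg values in both genotypes, and at Ldha the Atg14-deficient eTregs lie above the control eTregs.

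Whether a state difference itself depended on the genotype is asked by the interaction of state and genotype, and no region of the 61366 was called for it with edgeR (0%). Of the member regions, 7 of 157 passed the unadjusted threshold, as did 3.05% of all regions, and DESeq2 called none at the adjusted threshold. The smallest unadjusted p among members were at the regions 9952 bp upstream of Ldha, where the changes differed by 1.24 ± 0.44, 7507 bp upstream of Slc16a1, in the intron of Rictor (-0.83 ± 0.34), 17225 bp upstream of a Pfkfb3 start (1.79 ± 0.74) and 36888 bp downstream of Slc16a1 (1.1 ± 0.47). All had an adjusted p of 1 in edgeR's test, so that calls made in 1 genotype alone are not shown to differ between the genotypes.

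The second comparison asks what loss of Atg14 did to these regions within each Treg state. In eTregs, no member region was called at the adjusted threshold by edgeR or DESeq2, where edgeR called 14 regions in all (0.0228%). At the unadjusted threshold 13 of 157 member regions passed (8.28%), 12 of them higher in Atg14-deficient eTregs, against 6.36% of all regions (4.59% higher). Of the 56 promoter regions 4 passed, all higher, against 4.36% of all promoter regions. The median over the member promoter regions was -0.01 (log2), beside 0.01 over all promoter regions. In cTregs, no member region was called, where edgeR called 10 in all (0.0163%), and 3 of 157 passed the unadjusted threshold (1.91%), against 3.34% of all regions. Here the member promoter median was -0.04, as it was over all promoter regions.

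The values of the eTreg regions with the smallest unadjusted p were as follows, all with an edgeR adjusted p between 0.405 and 0.51. At the region 9952 bp upstream of Ldha the 4 Atg14-deficient eTreg libraries, given above, all exceeded the 3 control libraries, with means of 10.1 ± 1.17 (n = 4) and 4.99 ± 1.65 CPM (n = 3) and a log2 difference of 1.03 ± 0.32. The exact two-sided permutation test gave p = 0.0571, the smallest that 4 against 3 libraries can give. These are the same 3 control eTreg libraries that made up the control state difference, so that both comparisons share them. In cTregs the difference there was -0.22 ± 0.29. At 7507 bp upstream of Slc16a1 the Atg14-deficient eTregs had 10 counts in all and the controls 0, and the ranges overlapped at 0.

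In eTregs 6.36% of all regions passed the unadjusted threshold, 4.59% higher in Atg14-deficient cells. Of the 10 assigned regions of Rptor, a gene named here for its small p, 3 passed it, each in an intron and each higher in Atg14-deficient cells. The one of smallest unadjusted p, 15278 bp from a start (chr11:119670956-119671499), had 41.6, 23.4, 25.4 and 33.1 CPM in Atg14-deficient and 19.5, 18.4 and 21.3 CPM in control eTregs (0.65 ± 0.21). In cTregs it was also higher in Atg14-deficient cells in every library, with 36.5, 29.6, 42.9 and 26.0 CPM against 24.9, 24.4 and 23.2 CPM (0.48 ± 0.21, edgeR adjusted p = 1). The second, 14486 bp from a start further along the gene (chr11:119856665-119857033), was at 6.44 ± 4.07 CPM (n = 4) against 2.52 ± 0.68 CPM (n = 3), with overlap. At 17225 bp upstream of a Pfkfb3 start (chr2:11530224-11530517), within an intron of a longer transcript, the values were 4.49, 3.35, 2.65 and 5.14 CPM against 1.30, 1.57 and 1.44 CPM (1.42 ± 0.53).

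The 4 promoter regions past the unadjusted threshold in eTregs were both of those of Slc16a3, 1 of the 4 of Hk2, which is at an internal start, and that of Tsc2. Tsc2 encodes the inhibitor of Rheb, and its promoter had 10.8, 13.4, 18 and 11.3 CPM in Atg14-deficient and 6.51, 9.71 and 9.37 CPM in control eTregs (0.63 ± 0.27, edgeR adjusted p = 0.567), while both cTreg groups were between 12.1 and 15.2 CPM. At the stronger Slc16a3 region the difference of 0.75 ± 0.32 (edgeR adjusted p = 0.567) rested in part on the fourth Atg14-deficient eTreg library, at 35.2 CPM against 13.4 to 18.6 CPM in the other 3 and 7.39 to 16.3 CPM in controls.

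In cTregs, the smallest unadjusted p was at an internal promoter of Hk1, the constitutive hexokinase (chr10:62327474-62327991). It had 24.8, 26.9, 21.8 and 28.3 CPM in Atg14-deficient and 14.7, 19.4 and 15.2 CPM in control cTregs, without overlap (log2 difference 0.62 ± 0.22, edgeR adjusted p = 1), and 22.6 ± 4.67 (n = 4) and 21.6 ± 2.79 CPM (n = 3) in the eTregs. The Hk2 promoter was lower in Atg14-deficient cTregs by -0.40 ± 0.19 and the region 36888 bp downstream of Slc16a1 by -0.76 ± 0.35, both with overlap and an edgeR adjusted p of 1. A region in an intron of Nprl3, of GATOR1, had 0.84, 0.779, 5.78 and 4.50 CPM in Atg14-deficient cTregs against 0.978, 0.479 and 0 CPM, from 40 and 6 counts.

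**Figure D5:**
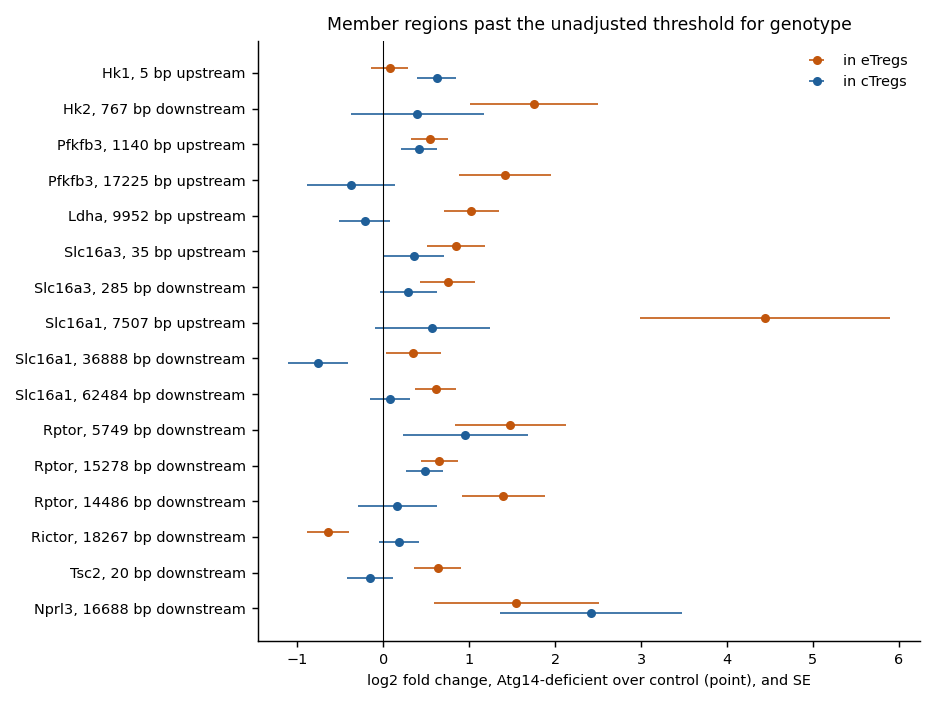
Log2 fold change of Atg14-deficient over control cells (points) with the SE (bars) for the 16 member regions that passed the unadjusted threshold in eTregs or in cTregs; none passed the adjusted threshold. In eTregs 12 of the 13 that passed lie above 0, with Rictor below; the value at Slc16a1, 7507 bp upstream, is fitted against 0 counts in controls and depends on the prior count.

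The other genes of both pathways were counted in the same way. Of 26 further glycolysis genes, 20 had a region assigned, 60 of which were tested. In controls 2 were called, a region in an intron of Slc2a1, the main glucose transporter of T cells, which rose by 0.78 ± 0.23 (edgeR adjusted p = 0.0441), and 1 in an intron of Bpgm, which fell by 1.85 ± 0.50 (edgeR adjusted p = 0.0254). In Atg14-deficient cells 3 were called, the promoter region of Pfkfb4, a paralogue of Pfkfb3, rising by 0.52 ± 0.14 (edgeR adjusted p = 0.0152) and 2 regions of Pdk3, a pyruvate dehydrogenase kinase, falling by 1.37 ± 0.40 and 1.28 ± 0.40. Of 42 further mTOR genes, 41 had a region, with 175 tested. In controls 2 were called, near Sgk1, a target of mTORC2, and Sesn3, a sestrin that restrains mTORC1, both lower in eTregs. In Atg14-deficient cells 6 were called, 2 higher and 4 lower. The 4 of smallest p included 2 of Sesn3, of which the one 1145 bp upstream fell by 0.60 ± 0.12 (edgeR adjusted p = 0.00166) and the one 195868 bp upstream rose by 2.41 ± 0.55 (edgeR adjusted p = 0.0062). A region in an intron of the mTORC2 gene Prr5 rose by 2.69 ± 0.60 (edgeR adjusted p = 0.0055), and the promoter region of Mios, of GATOR2, fell by 0.55 ± 0.14 (edgeR adjusted p = 0.0137). The share of all regions called was 5.3% in controls and 9.81% in Atg14-deficient cells. For genotype, none of the 60 or 175 regions was called in either state. At the unadjusted threshold in eTregs, which 6.36% of all regions passed, there were 5 of the 60 glycolysis regions, 2 higher and 3 lower in Atg14-deficient cells, and 12 of the 175 mTOR regions, 11 higher and 1 lower. In cTregs, where 3.34% of all regions passed it, there were 3 glycolysis regions, 2 higher and 1 lower, and 7 mTOR regions, 4 higher and 3 lower.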

How the data were processed

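Bulk ATAC-seq was measured in 14 libraries. After trimming, alignment and duplicate removal, the authors selected nucleosome-free fragments and ran MACS2 (version 2.1.0.20150603 per the labels) on each library. They merged the peaks that recurred in 50% or more of a genotype's replicates, and deposited the raw, not normalized counts of nucleosome-free reads in these regions. From 74.7 to 87.0% of the counts in a library were even. The methods name mm9 and the processing notes GRCm38. All 67207 regions on chromosomes lie inside GRCm38, with a region midpoint within 200 bp of 20043 of the 56164 RefSeq starts, against 1078 after a shift of 20000 bp, so GRCm38 was used. Positions are counted from 1.

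Libraries were scaled by total counts (CPM in the text), edgeR's filter on low counts kept 61366 regions, and a single quasi-likelihood model, with 1 term per group, took in all 14 libraries (R 4.3.3, edgeR 4.0.16, limma 3.58.1, DESeq2 1.42.0). The SE is that implied by the F statistic. The fit was tested on simulated counts with known changes. Single regions were also tested by an exact permutation test (SciPy 1.17.1). No replicate pair agreed within sampling noise.

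The members, the lists of further pathway genes and markers, and the motifs were chosen with earlier results of these data known. Regions were named by a rule: each member's promoter region of highest mean count, all member regions called in any contrast, and the 5 of smallest unadjusted p for each genotype contrast and the interaction. Outside this rule, the promoter regions past the unadjusted threshold for genotype in eTregs were named. So were some, but not all, of the regions that only an alternative setting called. Pathway genes that are no members were named by smallest p, at most 5 per contrast and here only among those called. Alternatives were TMM scaling, DESeq2's size factors, loess offsets, no filter, at least 10 counts in every library, DESeq2's Wald test, the groups compared alone, replicate blocks, promoter windows of 500 and 2000 bp, a log2 fold change beyond 1, and each library left out. Same-numbered cTreg and eTreg libraries had r = 0.119, 0.243, 0.140 and 0.225 in the Atg14-deficient pairs and 0.054, 0.209 and 0.190 in the control pairs. Pairs of different numbers ran from -0.187 to 0.096 in Atg14-deficient cells and from -0.2 to -0.012 in controls. The same-numbered pairs thus deviated together in both genotypes, weakly in the first control pair. The labels do not say that a number marks a mouse.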

Additional observations from a re-analysis of the deposited data

Results flagged for a closer look

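In the groups of 4 libraries, 104 sets of values from 52 named regions were searched for a library standing far from the other 3 by Dixon's test, which chance meets in about 1 in 20 sets, and 4 were found, all in Atg14-deficient cTregs. At the Aldoa promoter replicate 3 was low, at 32.6 CPM beside 40.3 to 41.4 CPM. At the region 9952 bp upstream of Ldha replicate 2 was low, at 7.01 CPM beside 13.7 to 14.8 CPM. At the Ldhb promoter replicate 2 was high, at 79.8 CPM beside 56.3 to 58.4 CPM. At the Gapdh promoter replicate 4 was high, at 56.5 CPM beside 49.4 to 49.8 CPM. No named region moved in opposite directions in eTregs and cTregs with genotype in every library.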

How the results depend on the processing

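In controls, 4 member regions were called between eTregs and cTregs. The count was 0 for promoter regions alone, 3 to 5 under the other alternatives, and 2 to 4 when 1 library was left out. In Atg14-deficient cells the count of 8 was 17 with a replicate block within genotype, 14 with DESeq2's Wald test, 4 for promoter regions alone and 3 with a log2 fold change beyond 1. It was 7 to 10 under the rest, and from 4 to 11 with 1 library left out. The 17 included all 8. For genotype and the interaction it was 0 under every alternative run.

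At the unadjusted threshold in eTregs, 13 regions became 8 with at least 10 counts in every library, 4 at promoters alone and 6 with a log2 fold change beyond 1, and 11 to 17 with 1 library left out. In cTregs, 3 became 6 with TMM scaling, 5 with DESeq2's size factors, 7 with loess offsets, 5 without a filter, 6 with the replicate block, 5 with DESeq2's test, and 1 with only the groups compared, at promoters alone or beyond a log2 fold change of 1, and 1 to 8 with 1 library left out. For the interaction, 7 became 3 with at least 10 counts in every library and 1 at promoters alone, and 4 to 10 with 1 library left out. Promoters alone and at least 10 counts in every library hold fewer regions, and the cause of the moves was not tested. The median promoter changes moved by less than their spread between libraries in all settings run. No called region, nor any of the regions of smallest unadjusted p for genotype and the interaction, changed sign in the settings run; the other main promoter regions were not recomputed singly.

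With 3 and 4 libraries per group the smallest exact two-sided p is 0.0571, and 0.1 for 3 against 3. Regions near 1 CPM rest on a few counts, and a count can include both ends of a fragment, so that small differences there were not detectable at this depth.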
